A study of Mus musculus with 16 samples.

Results

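Gas7, Me2 and Fbh1 are 3 of the 55450 genes in the count table of CD4+ and CD8+ tumor-infiltrating lymphocytes (TILs), and they encode a membrane-bending adaptor, a mitochondrial enzyme and a DNA helicase. They were chosen by their measured levels in CD8+ TILs, where the 4 Sirt2-/- libraries lay apart from the 4 WT libraries for each of them. Their CD8+ levels by genotype are therefore a description, and tests by genotype are given in the CD4+ libraries, which this criterion did not use. The members were chosen with earlier results of these data known, so these tests may not be fully independent of the choice. The identifiers are ENSMUSG00000033066.15 for Gas7, ENSMUSG00000024556.4 for Me2 and ENSMUSG00000058594.15 for Fbh1.

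SIRT2 is a deacetylase that the study examined as a regulator of T cell receptor signaling. WT (C57BL/6J) and Sirt2-/- (B6.129-Sirt2tm1.1Fwa/J) mice, 7 to 8 weeks old, carried s.c. tumors grown from 200000 cells of B16F10, a mouse melanoma line. The Sirt2 deletion was carried by the host animal in all of its cells and was not limited to T cells, and the labels name no treatment for any group. TILs were enriched on a density gradient and with CD3 beads, and stranded total RNA libraries were made from CD4+ and CD8+ cells, 4 of each genotype in either cell type. The labels give neither the sex of these animals nor whether the CD4+ and CD8+ libraries of the same number came from the same animal.

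GAS7 belongs to the F-BAR family, whose curved domains bind and bend membranes and link them to the actin cytoskeleton, and it is best known from neurons and phagocytes. ME2 is the NAD+-dependent malic enzyme of mitochondria, which turns malate into pyruvate and so lets carbon leave and re-enter the citric acid cycle in dividing cells. FBH1 is a helicase with an F-box, which joins it to an SCF ubiquitin ligase, and it acts at replication forks, where it limits homologous recombination.

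Total counts per library ranged from 28000949 to 62407851, and those of Sirt2-/- CD8+ libraries (39397812 to 52424211) were all above those of WT CD8+ libraries (32247774 to 37761374). Fewer than 15000 genes had a count in 3 libraries, namely Sirt2-/- CD4+ replicate 4 (8169 genes), WT CD4+ replicate 1 (12587) and WT CD8+ replicate 1 (14411), against 17730 to 22138 in the other 13, so results are also given without these 3. Sirt2 itself had 6.63 to 10.1 CPM (counts scaled to the library total) in Sirt2-/- and 32.8 to 48.6 CPM in WT CD8+ libraries, and 0 to 12.4 against 41.2 to 73.5 CPM in CD4+ libraries. The summed level of 4 Y-linked genes was at most 0.454 CPM in Sirt2-/- libraries and ranged from 6.40 to 298 CPM in WT libraries. The X-linked gene Xist had 442.5 to 1110 CPM in Sirt2-/- and 63.0 to 1224 CPM in WT libraries. The WT libraries thus varied widely in both, and the sex of the animals and the genotype cannot be told apart in these data. The 2 defining CD8 T cell markers, Cd8a and Cd8b1, summed to 1379 to 2078 CPM in CD8+ and 13.6 to 74.8 CPM in CD4+ libraries, and Cd4 with Zbtb7b summed to 435.3 to 678.1 CPM in CD4+ and 0.742 to 11.9 CPM in CD8+ libraries; both pairs thus follow the labelled cell types. CPM here are also scaled by the trimmed mean of M values (TMM), a correction for differences in RNA composition between libraries.

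The genes lie on different chromosomes, none of which carries Sirt2. In GRCm38, Gas7 occupies chr11:67455437-67688990 on the plus strand, with 11 annotated transcripts, of which 4 are coding. Me2 spans 45547 bases of the minus strand of its chromosome and has 1 coding transcript. Fbh1 occupies chr2:11742573-11777582 on the minus strand, with 2 coding transcripts, and it is transcribed away from Ankrd16, an ankyrin repeat gene that starts 294 bases from it at chr2:11777876-11790329 on the plus strand.

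The sequence between these divergent genes is shown because the levels of Fbh1 and Ankrd16 on either side of it are compared here by genotype. It is the 250 bases before the RefSeq start of Fbh1, chr2:11777586-11777835 on the minus strand of GRCm38, and no annotated exon overlaps it. Capitals mark CCAAT boxes, which read ATTGG because they lie on the opposite strand.
Fbh1 upstream: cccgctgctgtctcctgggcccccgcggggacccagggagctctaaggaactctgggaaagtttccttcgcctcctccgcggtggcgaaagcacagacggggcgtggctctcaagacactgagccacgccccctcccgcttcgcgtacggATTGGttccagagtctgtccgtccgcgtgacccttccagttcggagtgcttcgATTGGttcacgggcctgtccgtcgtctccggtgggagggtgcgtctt
Bases G and C made up 65.2% of this window, against a median of 52.4% over the 32851 windows of RefSeq genes. The window held 2 matches to CCAAT, from base 100 to base 96 and from base 47 to base 43 before the start, and 10.1% of all windows held at least 2 on either strand. The letters GGGCGG of a GC box, TATAAA of a TATA box and TTCNNNGAA of a STAT-binding (GAS) element were not in it on either strand, whereas 32.7%, 12.4% and 7.02% of all windows held them. Of the 3 genes, 1 was matched in the RefSeq promoter table, so no sequence is shown for Gas7 or Me2.

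Gas7 was expressed mainly in CD8+ TILs, and its level there was lower in Sirt2-/- than in WT libraries. In WT CD8+ TILs replicates 1 to 4 had 97.5, 98.6, 88.3 and 83.0 CPM, and in Sirt2-/- CD8+ TILs they had 55.3, 45.8, 56.9 and 47.4 CPM. The highest Sirt2-/- library stood under the lowest WT library, with a gap of 0.54 on the log2 scale. The group means were 91.9 ± 7.48 and 51.4 ± 5.57 CPM (SD, n = 4), and the log2 fold change was -0.86 (SE 0.11), or -0.79 (SE 0.10) without WT replicate 1. The separation was present in the unscaled counts as well, which were 1891 to 2766 in Sirt2-/- and 2879 to 3651 in WT libraries despite the larger totals of the Sirt2-/- libraries.

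In CD4+ TILs Gas7 was a low gene. Its values were 2.91, 10.4, 8.95 and 13.9 CPM in WT replicates 1 to 4 and 5.56, 10.3, 10.3 and 0 CPM in the Sirt2-/- replicates. The genotypes overlapped, and the lowest values of both groups were in the libraries with few genes detected. The 0 in Sirt2-/- replicate 4 allows up to 3 counts, or 0.0536 CPM, by counting error alone. The log2 fold change of -0.47 (SE 1.5) did not pass the test (edgeR quasi-likelihood test, adjusted p = 1.0), and an exact two-sided permutation of the 8 libraries gave p = 0.54. With all 8 libraries the SE of 1.5 was larger than the change seen in CD8+ TILs (-0.86), so such a change could not be told from none in that fit. Without the libraries with few genes the value was -0.34 (SE 0.31, adjusted p = 0.99 in edgeR).

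Me2 was higher in WT than in Sirt2-/- CD8+ TILs by a smaller margin and with little spread. The WT CD8+ libraries had 106.4, 106.5, 110.1 and 109.7 CPM, and the Sirt2-/- CD8+ libraries had 81.6, 73.3, 87.1 and 78.8 CPM. The 4 WT values lay close together, and the gap to the highest Sirt2-/- library was 0.29 on the log2 scale. Means were 108.2 ± 2.02 and 80.2 ± 5.74 CPM (SD, n = 4), with a log2 fold change of -0.45 (SE 0.088). Unlike those of Gas7, the unscaled counts of Me2 overlapped, from 3025 to 4230 in Sirt2-/- and from 3727 to 4125 in WT libraries, so its separation appeared once counts were related to the library totals.

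In CD4+ TILs Me2 did not separate by genotype. WT replicates 1 to 4 had 52.4, 58.7, 62.2 and 52.9 CPM, and the Sirt2-/- replicates had 73.0, 59.3, 61.0 and 39.0 CPM. The Sirt2-/- values surrounded the WT values, the lowest being replicate 4, which had the fewest genes detected. The log2 fold change was 0.03 (SE 0.26, edgeR adjusted p = 1.0; exact permutation p = 0.97) and 0.15 (SE 0.14, edgeR adjusted p = 0.99) without the libraries with few genes.

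Fbh1 was higher in Sirt2-/- than in WT libraries, and the genotypes lay apart in both cell types. In CD8+ TILs it had 44.3, 38.0, 46.3 and 34.5 CPM in Sirt2-/- replicates 1 to 4 and 23.2, 28.0, 26.0 and 27.3 CPM in the WT replicates. Every Sirt2-/- library stood above every WT library, by a gap of 0.30 on the log2 scale. Means were 40.8 ± 5.49 and 26.1 ± 2.10 CPM (SD, n = 4), and the log2 fold change was 0.63 (SE 0.12), or 0.60 (SE 0.12) without WT replicate 1.

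In CD4+ TILs the Sirt2-/- libraries had 59.0, 52.4, 54.8 and 59.8 CPM of Fbh1, and the WT libraries had 20.9, 33.7, 46.4 and 43.2 CPM. Again no Sirt2-/- library overlapped a WT library, and the gap was 0.17 on the log2 scale. Fbh1 was the 1 of 3 members without overlap in CD4+ TILs, where 3.15% of the 15070 genes tested had no overlap in either direction (1.38% higher in Sirt2-/- and 1.77% higher in WT libraries). The log2 fold change was 0.64 (SE 0.31, adjusted p = 1.0 in edgeR). In this comparison 0 of 15070 genes passed the adjusted threshold of 0.05 in edgeR, while 190 (1.26%) had an unadjusted p under 0.05 and DESeq2 called 7. The exact two-sided permutation p was 0.0286, the smallest that 4 libraries against 4 allow. It was not adjusted for the 3 genes tested in this way or for the choice of genes. Without the libraries with few genes the difference was 0.43 (SE 0.16, adjusted p = 0.97 in edgeR), the 3 Sirt2-/- libraries still stood above the 3 WT libraries, and the exact permutation p was 0.1, again the smallest possible. WT replicate 1, a library with few genes, had the lowest level, and leaving it out lowered the difference to 0.45.

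**Figure D1:**
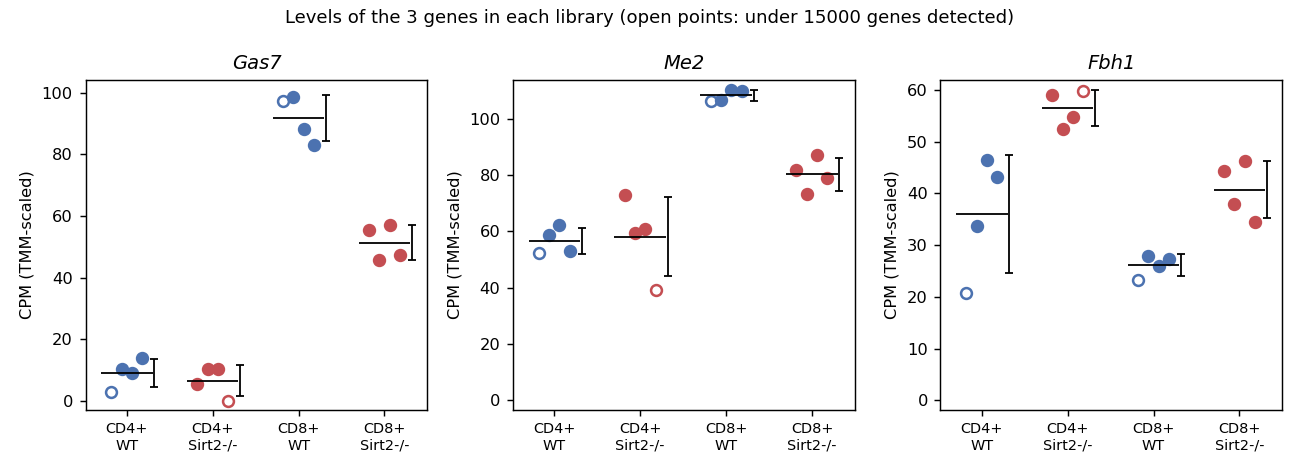
CPM (TMM-scaled, linear axes) of Gas7, Me2 and Fbh1 in each of the 16 libraries by cell type and genotype, with the group mean (line) and SD (bar, n = 4). Open points mark the 3 libraries with fewer than 15000 genes detected. In CD8+ TILs the genotypes do not overlap for any of the 3 genes, and in CD4+ TILs they are apart for Fbh1, from 52.4 to 59.8 CPM against 20.9 to 46.4 CPM.

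The 3 genes sat inside the group of separated genes rather than at its edge. In CD8+ TILs 2.88% of 15302 genes had no overlap between the genotypes (1.72% higher in Sirt2-/- and 1.16% higher in WT libraries), with a median gap of 0.093 on the log2 scale, and the gaps of Gas7, Fbh1 and Me2 ranked 58, 95 and 101 of 440. Just outside the limit was Dlg1, with a gap of -2.42e-05 (an overlap), and just inside it was Mgat4a, with a gap of 0.000184. In the fit across all genes 1 of 15302 (0.00654%) passed the adjusted threshold in CD8+ TILs, and 3.78% had an unadjusted p under 0.05.

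Fbh1 was also 1 of the 14 genes, of 14259 tested in both cell types (0.0982%), whose Sirt2-/- libraries were all above the WT libraries in CD4+ and in CD8+ TILs, while 11 genes (0.0771%) were higher in WT libraries in both. That Fbh1 met the CD8+ condition follows from how it was chosen. The other 13 included Gbp3, Gbp5, Gbp7 and Iigp1, and also Trdv4, Fbxo17, Abca1 and Tgm2, all named here after their values were seen. Trdv4, Fbxo17, Abca1 and Tgm2 had larger log2 fold changes in both cell types than the Gbp genes and Iigp1. Iigp1, for example, had a log2 fold change of 1.18 in CD4+ and 1.47 in CD8+ TILs, with gaps of 0.44 and 0.0023. The WT libraries higher in both cell types included Sirt2 and Y-linked genes such as Kdm5d.

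The genotype effects in the cell types were set side by side. For Fbh1 the CD8+ effect minus the CD4+ effect was -0.01 (SE 0.34), for Me2 it was -0.47 (SE 0.24) and for Gas7 -0.38 (SE 1.25), all on the log2 scale. Since the CD8+ values entered the choice of genes, these differences carry no test. Without the libraries with few genes they were 0.17 (SE 0.19) for Fbh1, -0.58 (SE 0.15) for Me2 and -0.45 (SE 0.28) for Gas7.

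Levels of other cell types varied between the same libraries. In CD8+ TILs the summed CPM of 12 myeloid markers ranged from 20.2 to 64.4 in Sirt2-/- and from 8.79 to 29.9 in WT libraries, and that of 6 stromal markers from 41.2 to 108.3 and from 34.2 to 49.4, with no marker of either list at 0 in every library of a group. Their part in the levels of Gas7, Me2 and Fbh1 was not tested. In bulk libraries, fewer cells that carry a transcript and less of it per cell cannot be told apart.

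Between the cell types, averaged over genotypes, Gas7 and Me2 were higher in CD8+ than in CD4+ TILs. This comparison uses the CD8+ libraries that also entered the choice of genes, so it is not independent of that choice. Of the 3 members, 2 passed it, against 11.3% of the 17270 genes tested (5.65% higher in CD8+ and 5.7% higher in CD4+ TILs). Gas7 had a log2 fold change of 3.17 (SE 0.68, adjusted p = 0.0052 in edgeR), and with the replicate number as a block it was 3.59 (SE 0.95) and no longer passed (adjusted p = 0.057). Its mean was 10.2 times higher in CD8+ than in CD4+ TILs of WT mice and 7.85 times higher in those of Sirt2-/- mice, and the lowest of the 8 CD8+ libraries (45.8 CPM) stood above the highest CD4+ library (13.9 CPM). Me2 had a log2 fold change of 0.71 (SE 0.12, adjusted p = 0.00056 in edgeR), with means 1.91 times higher in WT and 1.38 times higher in Sirt2-/- CD8+ TILs. The lowest CD8+ value of Me2, 73.3 CPM, and its highest CD4+ value, 73.0 CPM, nearly met, both in Sirt2-/- libraries.

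Fbh1 leaned the other way, with a log2 fold change of -0.46 (SE 0.17, adjusted p = 0.11 in edgeR) that did not pass the threshold over all 16 libraries. The 4 Sirt2-/- CD4+ libraries (52.4 to 59.8 CPM) were all above the Sirt2-/- CD8+ libraries (34.5 to 46.3 CPM). In WT mice the CD4+ values (20.9 to 46.4 CPM) surrounded the CD8+ values (23.2 to 28.0 CPM) through CD4+ replicate 1 alone, a library with few genes. The other WT CD4+ libraries (33.7 to 46.4 CPM) were all above the WT CD8+ libraries. When the 3 libraries with few genes were left out, the value was -0.55 (SE 0.095) and passed (edgeR adjusted p = 0.00016), as did Gas7 (2.76, SE 0.15, adjusted p = 2.88e-10) and Me2 (0.59, SE 0.076, adjusted p = 7.3e-06), in a comparison in which 37.7% of genes then passed. Leaving out Sirt2-/- CD4+ replicate 4 alone (-0.46) or WT CD4+ replicate 1 alone (-0.56) was enough for Fbh1 to pass.

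**Figure D2:**
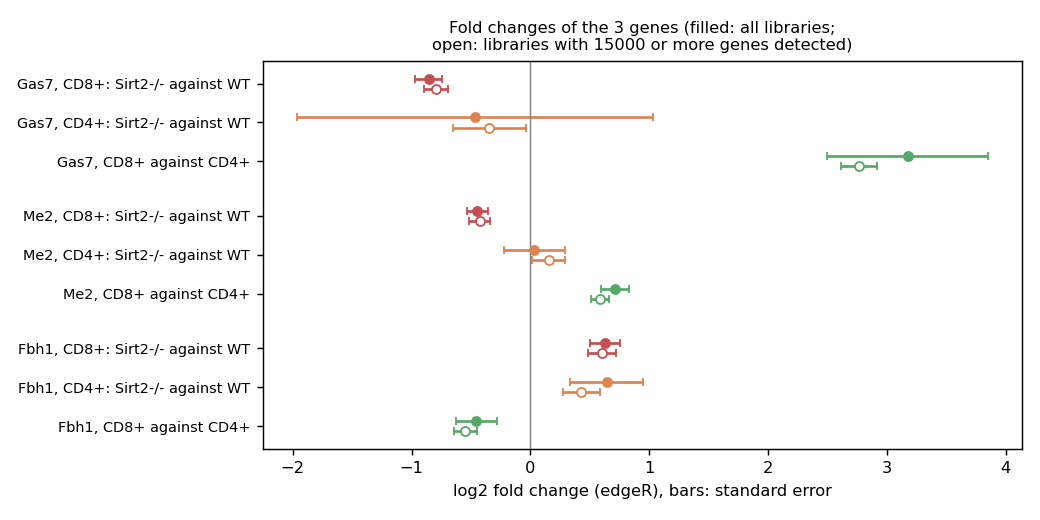
Log2 fold change (x axis, with bars for 1 standard error) of each gene in CD8+ TILs by genotype, in CD4+ TILs by genotype and between CD8+ and CD4+ TILs. Filled points use all libraries and open points the libraries with at least 15000 genes detected. Fbh1 lies at 0.63 in CD8+ and 0.64 in CD4+ TILs, and the widest bar is that of Gas7 in CD4+ TILs (SE 1.5).

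Per kilobase of annotated exon, the order of the 3 genes changed with the cell type. In WT CD8+ TILs Me2 came first with 14.9 ± 0.279 CPM per kilobase (SD, n = 4), followed by Gas7 with 8.10 ± 0.659 and Fbh1 with 5.11 ± 0.410, and these ranges did not meet. In Sirt2-/- CD8+ TILs Me2 had 11.1 ± 0.791, Fbh1 7.97 ± 1.07 and Gas7 4.53 ± 0.491 CPM per kilobase, so that Fbh1 and Gas7 stood in the reverse order. In CD4+ TILs Fbh1 had 7.05 ± 2.24 and Me2 7.80 ± 0.653 CPM per kilobase in WT libraries, which did not differ beyond their spread, and 11.0 ± 0.690 and 8.01 ± 1.94 in Sirt2-/- libraries. Gas7 came last in CD4+ TILs, with 0.797 ± 0.404 in WT and 0.577 ± 0.432 CPM per kilobase in Sirt2-/- libraries. On this scale Gas7 stood at the 71.2 percentile of the 17270 genes in WT CD8+ TILs and at the 30.3 percentile in WT CD4+ TILs.

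Within each gene, the order of the groups by mean CPM was WT CD8+, Sirt2-/- CD8+, WT CD4+ and Sirt2-/- CD4+ for Gas7, and the CD4+ groups did not differ beyond their spread. For Me2 the CD8+ groups came in the same order, followed by Sirt2-/- CD4+ (58.1 ± 14.1 CPM) and WT CD4+ (56.6 ± 4.73 CPM), which likewise did not differ beyond their spread. For Fbh1 the order was Sirt2-/- CD4+, Sirt2-/- CD8+, WT CD4+ and WT CD8+, in which Sirt2-/- CD8+ (40.8 ± 5.49 CPM) and WT CD4+ (36.0 ± 11.5 CPM) overlapped.

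Over the 16 libraries Gas7 and Me2 went together, with a Spearman correlation of 0.87 (0.79 over the 13 libraries with more genes), and Fbh1 went against both, at -0.57 with Gas7 (-0.80) and -0.43 with Me2 (-0.54). These are descriptions over libraries that fall into 4 groups and share the choice of genes. The genes whose log2 CPM were most like those of Gas7 were Ifitm10 (0.97), Sfxn1 (0.96), Prag1 (0.96), Lsm2 (0.95) and Nek6 (0.95). For Me2 they were Gnl3 (0.96), Mrpl21 (0.96), St3gal6 (0.94), Rbm34 (0.94) and Ecpas (0.94). For Fbh1 they were Iigp1 (0.91), Bbx (0.91), Acsl3 (0.90), Irgm2 (0.88) and Ifit2 (0.88), and over the 13 libraries their correlations with Fbh1 were 0.77 to 0.85. The order depended on the libraries with few genes: over the other 13, these genes ranked 4 to 58 in likeness to Gas7, 5 to 86 to Me2 and 16.5 to 128.5 to Fbh1.

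The neighbors of the 3 genes that were tested in CD8+ TILs did not separate by genotype there, where 2.88% of all 15302 genes tested did. The members were chosen for separating, so the contrast with their neighbors is a description. Ankrd16, across the shared interval from Fbh1, had 24.8, 28.1, 21.4 and 28.9 CPM in Sirt2-/- CD8+ libraries and 61.6, 19.0, 29.8 and 19.4 CPM in WT CD8+ libraries. The WT values surrounded the Sirt2-/- values, and the highest was in WT replicate 1, the CD8+ library with the fewest genes. The log2 fold change was -0.37 (SE 0.36, edgeR adjusted p = 0.99) and became 0.19 (SE 0.19, adjusted p = 1.0) without that library. Il15ra, which encodes the alpha chain of the IL-15 receptor and lies 8256 bases beyond the other end of Fbh1, had 15.6 to 18.3 CPM in Sirt2-/- and 15.3 to 21.6 CPM in WT CD8+ libraries (log2 fold change -0.06, SE 0.17, edgeR adjusted p = 0.99). In CD4+ TILs neither passed the test, with log2 fold changes of 0.33 (SE 0.41) for Ankrd16 and 0.12 (SE 1.47) for Il15ra (adjusted p = 1.0 for both in edgeR).

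**Figure D3:**
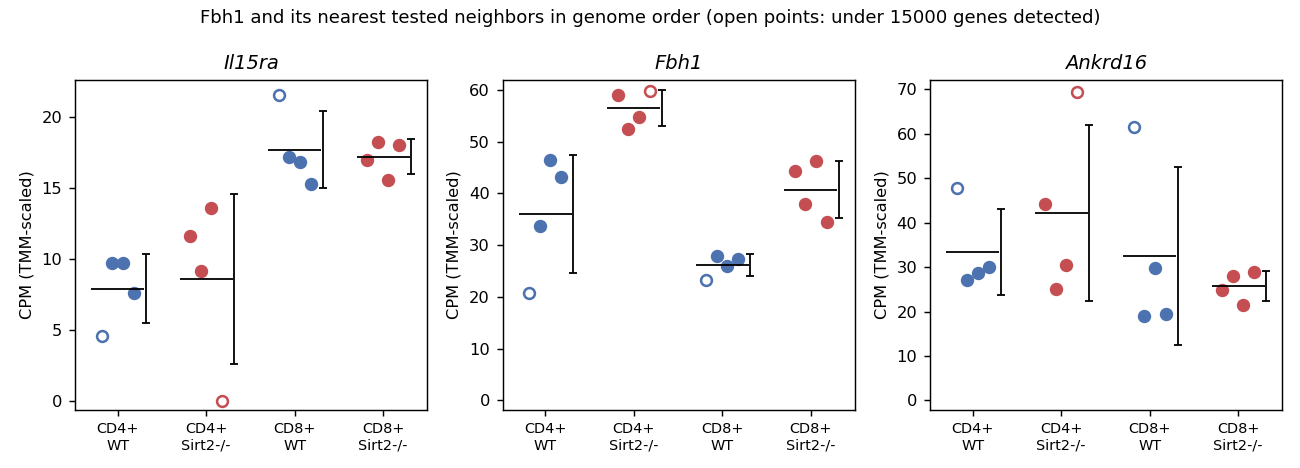
CPM (TMM-scaled, linear axes) of Il15ra, Fbh1 and Ankrd16, neighbors on chromosome 2, in each library by cell type and genotype, with the group mean (line) and SD (bar, n = 4). Open points mark the 3 libraries with fewer than 15000 genes detected. In CD8+ TILs the genotypes are apart for Fbh1, which was chosen for this, and overlap for both neighbors. The highest Ankrd16 value of WT CD8+ TILs, 61.6 CPM, is in a library with few genes.

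Near Me2, on chromosome 18, the RNA-processing gene Elac1 lies 15424 bases away on the same strand and had 15.9 to 21.5 CPM in Sirt2-/- and 16.4 to 40.1 CPM in WT CD8+ libraries. Its log2 fold change was -0.47 (SE 0.28, edgeR adjusted p = 0.99), and -0.07 without WT replicate 1, where the highest value was. Ska1, the nearest tested gene on the other side, had a log2 fold change of -0.38 (SE 0.36, edgeR adjusted p = 0.99) in CD8+ TILs. Gas7 overlaps Glp2r and Gm12301, which lie on the opposite strand and had 23 and 0 counts over all 16 libraries. The nearest tested genes were Stx8, with 28.0 to 31.8 CPM in Sirt2-/- and 27.1 to 35.7 CPM in WT CD8+ libraries, and Myh3, which did not pass the filter in CD8+ TILs.

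Other genes of the pathways of Gas7 and Me2 were taken from lists, and none of them passed the adjusted threshold by genotype in CD4+ or CD8+ TILs. Of a list of F-BAR proteins and their partners Was, Wasl and Wipf1, which have no F-BAR domain, 25 genes other than Gas7 were tested between the cell types. Of these, 3 were higher in CD8+ and 5 higher in CD4+ TILs, against 5.65% and 5.7% of all genes, with a median log2 fold change of -0.11 against 0.10 over all genes. Leaving out 1 library at a time gave 0 to 6 higher and 1 to 7 lower, both highest counts being without Sirt2-/- CD4+ replicate 4. Over all genes the number called in these fits ran from 1510 to 4534, and was also highest without that library. The count of 0 higher came without WT CD4+ replicate 4, Sirt2-/- CD8+ replicate 3, or WT CD8+ replicate 2 or 4. The count of 1 lower came without Sirt2-/- CD8+ replicate 2 or 3. With no filter 0 were higher and 4 lower. Srgap3, a protein with an F-BAR domain, was higher in CD8+ TILs by 2.97 (SE 0.90, adjusted p = 0.042 in edgeR). Pstpip1, an adaptor of hematopoietic cells, was higher by 0.32 (SE 0.084, adjusted p = 0.019 in edgeR), as was Wipf1, a partner of the Wiskott-Aldrich protein, by 0.27. Arhgap45 (-0.57), Wasl (-0.56) and Fcho2 (-0.64) were higher in CD4+ TILs. Srgap1 (-6.04) and Pstpip2 (-3.84) were also called, at low levels in most libraries. The highest value of Srgap1, 4.40 CPM, was in WT CD4+ replicate 1, and that of Pstpip2, 49.2 CPM, in Sirt2-/- CD4+ replicate 4. Both libraries have few genes, and without them the highest CD4+ values were 0.415 CPM for Srgap1 and 5.52 CPM for Pstpip2. Pacsin2 (0.64, adjusted p = 0.13 in edgeR) and Fnbp1 (0.17, adjusted p = 0.29) did not pass. The fold change of Gas7, 3.17 (SE 0.68), was above the highest of the list, that of Srgap3, but did not differ from it beyond their standard errors.

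Of the malate and pyruvate list, 19 genes other than Me2 were tested, of which 17 had higher values in CD8+ TILs, as did 55.3% of all genes, with a median of 0.31. In edgeR 0 passed in that direction, while 5 of the 19 (against 22.5% of all genes) had an unadjusted p under 0.05 in either direction. In that direction 2 passed with DESeq2 and 3 at a minimum of 10 counts per library. DESeq2 also called more genes over the whole table, and the share of all genes called at that minimum is not given here. Got1, the cytosolic aspartate aminotransferase, was the 1 called gene, and it was higher in CD4+ TILs (log2 fold change -1.52, SE 0.18, adjusted p = 2.26e-05 in edgeR), with 42.6 to 108.7 CPM in CD4+ against 22.1 to 29.1 CPM in CD8+ libraries. Mdh2, the mitochondrial malate dehydrogenase, had 0.31 (adjusted p = 0.14 in edgeR) and Mpc1, of the mitochondrial pyruvate carrier, 0.12 (adjusted p = 0.96). Me2 was the malic enzyme with the highest level in each group. Cytosolic Me1 had 0.140 to 0.537 CPM per kilobase as group means, against 7.80 to 14.9 for Me2, and mitochondrial Me3 had 0 counts in all 16 libraries, which allows up to 3 counts in each.

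Without the 3 libraries with few genes, 10 genes of the malate and pyruvate list were higher in CD8+ TILs and 1 in CD4+ TILs, and 6 and 10 of the list of F-BAR proteins and partners, with 19.3% and 18.3% of all genes called in these directions.

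**Figure D4:**
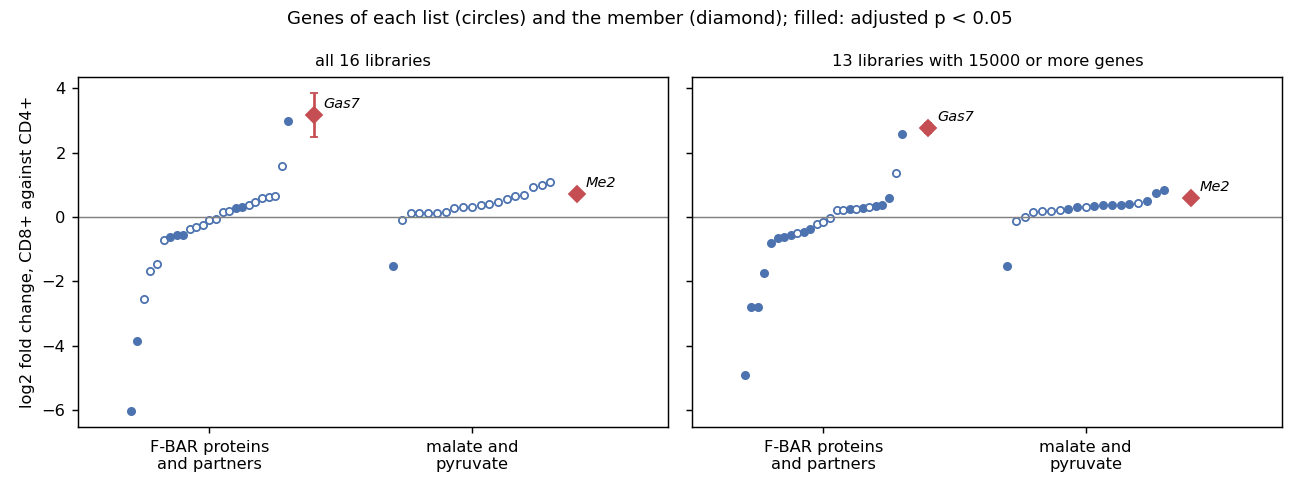
Log2 fold change between CD8+ and CD4+ TILs (y axis, above 0 for higher in CD8+) of the tested genes of the list of F-BAR proteins and partners and of the malate and pyruvate list, sorted by value (circles), with Gas7 and Me2 beside their list (diamonds, bars for 1 standard error). Filled symbols passed the adjusted threshold of 0.05, with all 16 libraries on the left and the 13 with more genes on the right. With all 16 libraries Gas7 lies at 3.17, close to the highest of its list (2.97), and Me2 lies at 0.71, where 17 of the 19 other genes of its list are above 0.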

How the data were processed

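Total RNA of CD4+ and CD8+ TILs was sequenced in 16 libraries, 4 per genotype and cell type, grouped by their labels. The authors deposited unnormalized read counts for each gene, as whole numbers, and per the labels STAR, HTSeq and mm10 were used, with versions not given in the sources used here. Counting strand was not given either. Totals per library are in the report, and a floor of 3 counts covers counting error only, since the labels name no molecular identifiers and reads can be copies of 1 molecule. Gene positions and exon lengths came from GENCODE mouse release 21 (GRCm38), and 1 upstream sequence from RefSeq.

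Counts were fitted in R 4.3.3 with edgeR 4.0.16 (TMM, filterByExpr, robust quasi-likelihood, two-sided, Benjamini–Hochberg over all genes tested, threshold 0.05), within each cell type by genotype and over all 16 libraries between cell types. Log2 CPM used a prior count of 2. A gap is the distance on the log2 CPM scale between the nearest libraries of the genotypes. The functions were tested on simulated data. Single genes in CD4+ TILs were also compared by exact permutation of the 70 assignments. No test is given for the 3 genes in CD8+ TILs by genotype. The members and lists were chosen with earlier results of these data known. The genes named are the members, Sirt2, preset genes and up to 4 called genes per direction of each list, the 5 genes most like each member, their neighbors and those at the limit of the choice; other called genes of a list were named after their values were seen. A list of genes around Fbh1 is not reported here. The paper gives n = 4 per group for the sequenced TILs. The labels do not say that libraries of a group came from separate animals, so p-values measure the spread between these libraries.

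Alternatives were DESeq2 1.42.0, its size factors, upper quartile scaling, a minimum of 10 counts per library or no filter, prior count 0.5, 1 model for all libraries, the replicate number as a block, and leaving out libraries.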

Additional observations from a re-analysis of the deposited data

How the results depend on the processing

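Leaving out libraries or changing the tool moved both the counts of called genes and some values of Gas7, Me2 and Fbh1. The numbers of genes called by genotype were 7 (DESeq2) and 6 (without the 3 libraries with few genes) in CD4+ TILs, and 28 (DESeq2), 5 (no filter), 7 (without WT replicate 1, which has few genes) and 0 to 7 (leaving out 1 library at a time; 0 without Sirt2-/- replicate 1 or 4, 2 without WT replicate 2, 4 without WT replicate 4) in CD8+ TILs. Between cell types they were 3094 with DESeq2, 6776 without the 3 libraries, and 1510 to 4534 leaving out 1 library, the highest without Sirt2-/- CD4+ replicate 4, against 1959. Genes without overlap made up 1.96% (no filter) and 10.9% (without the 3 libraries) in CD4+ and 4.87% (without WT replicate 1) in CD8+ TILs; with fewer libraries overlap is less likely by construction.

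Fbh1 between cell types passed with DESeq2 (-0.49), at least 10 counts in every library (-0.45) and without the 3 libraries (-0.55), and ranged from -0.56 to -0.39 leaving out 1 library. The log2 fold change of Me2 in CD4+ TILs turned to -0.013 with at least 10 counts in every library, and ranged from -0.10 to 0.19 leaving out 1 library, negative without Sirt2-/- replicate 1 (-0.10) and without WT replicate 1 (-0.00075). Gas7 in CD4+ TILs could not be fitted at 10 counts in every library, since 1 library has 0. Leaving out 1 library, its log2 fold change in CD4+ TILs ranged from -0.78 (without Sirt2-/- replicate 2) to -0.051 (without Sirt2-/- replicate 4). The CD8+ minus CD4+ effect ranged, leaving out 1 library, from -0.79 to -0.071 for Gas7, -0.63 to -0.35 for Me2 and -0.15 to 0.19 for Fbh1, and without the 3 libraries it was -0.58 for Me2 and 0.17 for Fbh1. The cause of these changes was not tested.

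With the replicate number as a block, 4 genes were called in CD8+ TILs, Gas7 between cell types was 3.59 (edgeR adjusted p = 0.057), Me2 in CD4+ TILs turned to -0.0018 and the Gas7 difference of effects to 0.13. Within a cell type this block ties Sirt2-/- and WT libraries by number alone, and these cannot share an animal. Their deviations correlated at -0.072 to 0.077 in CD4+ and -0.057 to 0.030 in CD8+ TILs. Deviations of same-numbered CD4+ and CD8+ libraries correlated at 0.067 to 0.116 in WT and -0.014 to 0.133 in Sirt2-/- mice. Whether CD4+ and CD8+ libraries of the same number share an animal is not settled by the labels or by these correlations, which did not all exceed 0.1. Alternatives for the gene lists were chosen after seeing the data.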
